A study of Caenorhabditis elegans with 79 samples.

Results

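The meiotic chromosome axis and synapsis genes are described here through their mRNA in Caenorhabditis elegans. The 9 genes rec-8, him-3, htp-1, htp-2, htp-3, syp-1, syp-2, syp-3 and syp-4 were chosen by gene name for their place in the synaptonemal complex. They are among the 21976 genes of the mRNA table. The choice used no measured value, but earlier results of these data were known when it was made. Each name matched 1 gene, with the sequence names W02A2.6 (rec-8), ZK381.1 (him-3), F41H10.10 (htp-1), Y73B6BL.2 (htp-2), F57C9.5 (htp-3), F26D2.2 (syp-1), C24G6.1 (syp-2), F39H2.4 (syp-3) and H27M09.3 (syp-4). By the RefSeq table of assembly WBcel235, rec-8, him-3, htp-1 and htp-2 lie on chromosome IV, htp-3, syp-3 and syp-4 on chromosome I, and syp-1 and syp-2 on chromosome V. All 9 were among the 7324 genes that reached a mean of 10 FPKM over the 12 mRNA libraries and were tested. FPKM is the number of sequenced fragments per kilobase of transcript, scaled to the mapped fragments of a library, so levels of different genes can be set side by side.

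In meiotic prophase the sister chromatids of each chromosome are held together by cohesin, and REC-8 is one of its meiotic kleisin subunits. HORMA domain proteins assemble on this cohesin-bound axis. HTP-3 recruits the other HORMA proteins, HIM-3, HTP-1 and HTP-2. The SYP proteins then form the central region that bridges the axes of paired homologous chromosomes, and worms without any of SYP-1 to SYP-4 fail to synapse. These proteins act in the germ line, which in a whole hermaphrodite is one tissue among several.

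Whole young adult hermaphrodites of 3 strains were compared: the wild type N2 (WT), morc-1(tm6048) and hrde-1(tm1200). The gene hrde-1 codes for an Argonaute protein of the germline nuclear RNAi pathway, which passes silencing by small RNAs to later generations, and MORC-1 is an ATPase that acts downstream of it on chromatin. Animals of every group were fed OP50 bacteria, came from populations kept at 20 °C and were moved to 25 °C at the parental generation. They were collected in generation 1 (early) or generation 4 (late) at 25 °C, and by the labels RNA came from gravid animals. Each of the 6 groups held 2 libraries of polyadenylated RNA, and the labels do not say that the libraries of a group came from separate cultures, so a p-value here reflects no more than how far these libraries spread. The alleles are present in every cell of the animals, and the labels do not state which sequence each removes.

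The FPKM sums of the libraries ran from 0.963 to 1.404 M, read depth is unknown, and the replicates of a group correlated across genes at r = 0.897 (WT late) to 0.950 (morc-1 late). The morc-1 mRNA stood at 9.77 to 14.1 FPKM in the 4 morc-1 libraries and at 22.4 to 54.9 FPKM in the other 8. The hrde-1 mRNA, listed under the name wago-9, stood at 68.5 to 151 FPKM in the 4 hrde-1 libraries against 97.2 to 234 FPKM in the 4 WT libraries, and was lower in hrde-1 than in WT without overlap within each generation. It stood at 125 and 161 FPKM in morc-1 early, which spans both hrde-1 early values (151 and 134 FPKM), so in generation 1 its level does not set the hrde-1 libraries apart from the others. In morc-1 late it was 174 and 175 FPKM, above both hrde-1 late values. Libraries with the same replicate number deviated together within a generation. Results are therefore also given with the replicate number as a block within each generation. No block joins early to late libraries. In late against early comparisons the blocked fit thus leaves the spread between replicate numbers out of its error. Its p-values there can be too small and its counts too high, and the fit without a block is the reference. Comparisons of strains within a generation, and of late against early changes between strains, are not affected in this way.

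The mean level over the 12 libraries fell in the order rec-8 (107.6 FPKM), him-3 (100.5 FPKM), htp-1 (80.1 FPKM), htp-2 (60.95 FPKM), syp-4 (52.5 FPKM), syp-2 (47.6 FPKM), syp-1 (47.4 FPKM), htp-3 (36.04 FPKM) and syp-3 (31.3 FPKM). Among neighbours in this order, only htp-1 above htp-2 held in 12 of 12 libraries, with a ratio of 1.12 to 1.59. These paralogs have very similar coding sequences, so how reads were split between them is uncertain. Other neighbours changed places in some libraries: rec-8 exceeded him-3 in 7 of 12, syp-2 exceeded syp-1 in 5 of 12 and syp-1 exceeded htp-3 in 11 of 12.

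**Figure D1:**
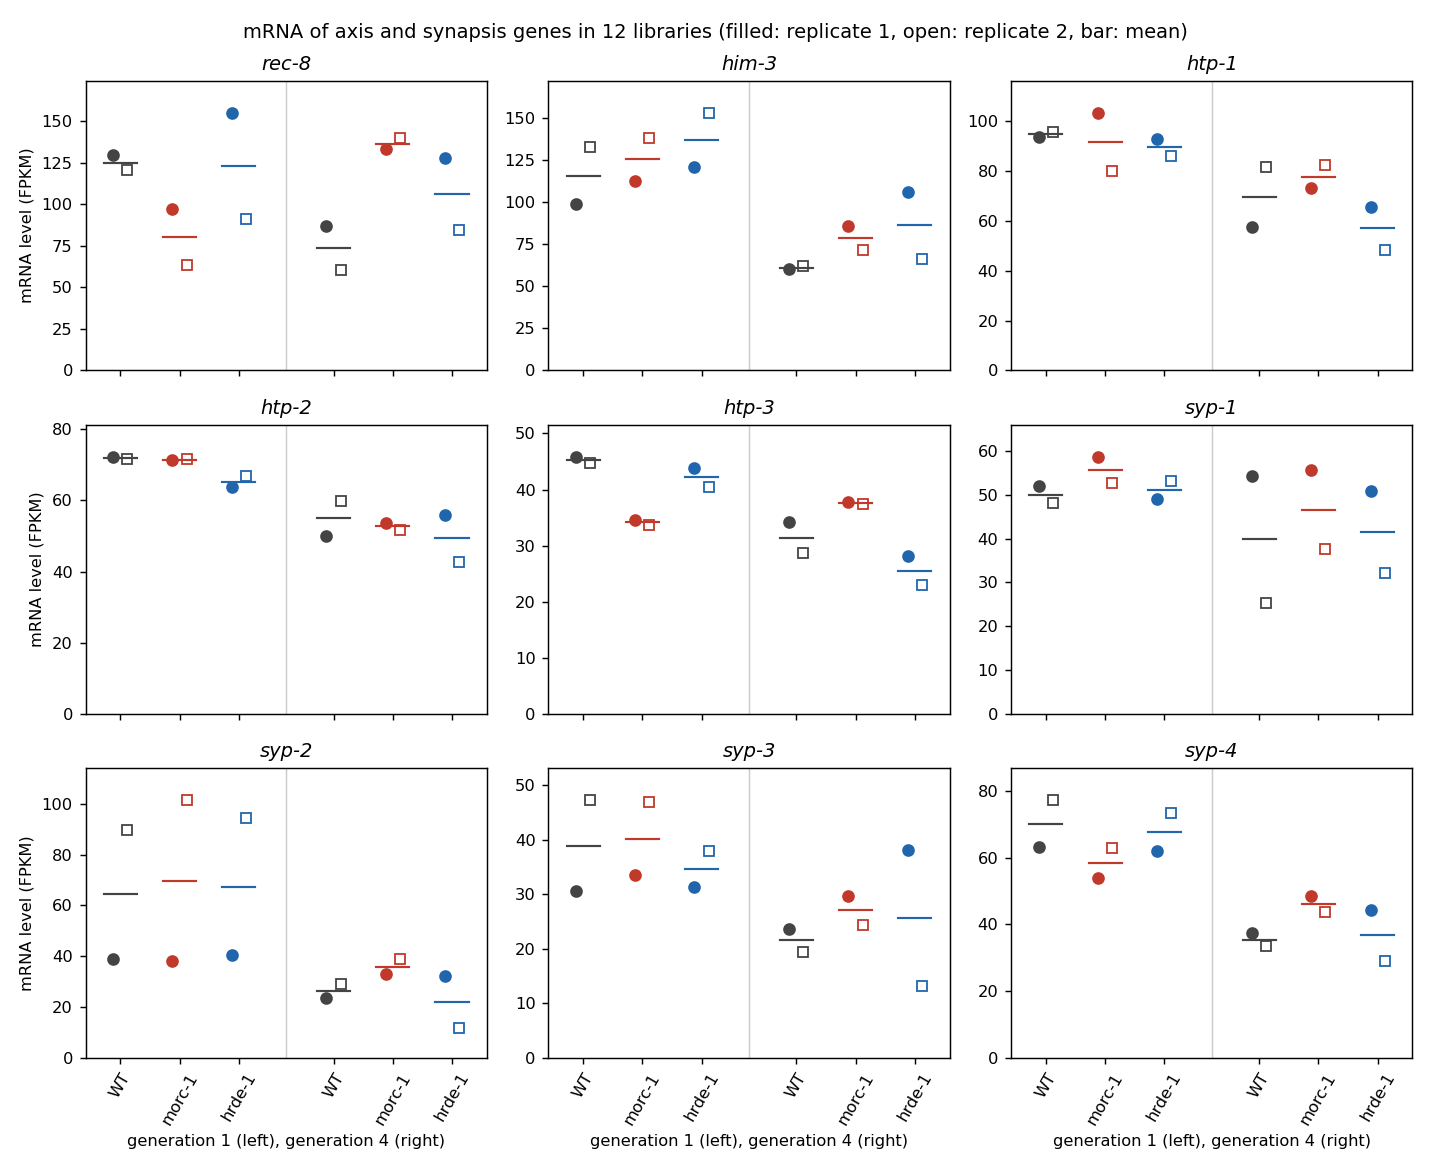
mRNA level in FPKM (vertical axes, from 0) of each gene in every library, with generation 1 on the left and generation 4 on the right of each panel; filled circles are replicate 1, open squares replicate 2 and horizontal bars the mean of 2. The rec-8 panel shows morc-1 below WT in generation 1 (63.5 and 97.2 FPKM) and above it in generation 4 (133 and 140.03 FPKM), and the syp-2 panel shows replicate 2 above replicate 1 in generation 1 in all 3 strains.

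Across the late and early libraries the 9 mRNAs were, in sum, lower late in WT and hrde-1. Their summed level was 625 and 728 FPKM in WT early and 428 and 400.02 FPKM in WT late. In morc-1 it was 603 and 651 FPKM early and 550.4 and 528 FPKM late. In hrde-1 it was 659 and 697 FPKM early and 549 and 351 FPKM late. Early and late sums did not overlap in any strain, and the late morc-1 sums lay above both late WT sums. Per M of each library's summed FPKM, the morc-1 values were 533 and 582 early and 572 and 538 late and overlapped, so the separation in morc-1 depends on the scaling, while those of WT and hrde-1 stayed apart.

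Gene by gene, without a block, limma (log2(FPKM + 1), Benjamini-Hochberg adjusted over 7324 genes, threshold 0.05) called 0 of the 9 in any of the 10 comparisons made. The share of all tested genes called in either direction was 7.13% for WT late against early, 0.382% for morc-1, 0.942% for hrde-1, 0.355% for morc-1 late against WT late, 3.25% for hrde-1 late against WT late, and 1.05% for hrde-1 late against morc-1 late. It was 0.109% and 0.601% for the early comparisons with WT, and 0.0% and 0.041% for the interactions of generation with morc-1 and with hrde-1. The latter tests ask whether the late against early change of a mutant differs from that of WT. Unadjusted p fell below 0.05 for 4 genes in WT late against early (all lower), 5 in hrde-1 (all lower), and 1 higher and 1 lower in morc-1. The share of all genes below this unadjusted threshold is not given here, and the whole table was shifted down late. These counts therefore do not set the 9 genes apart from the others. With the replicate block within each generation, 6 of 9 fell in WT late against early, where 50.5% of all tested genes fell. In hrde-1 5 of 9 fell, against 40.9% of all genes, and in morc-1 0 fell and 1 rose, rec-8, as did 3.06% of all genes. The shares of the 9 genes stand near those of all genes in WT and hrde-1. These blocked late against early counts leave the spread between replicate numbers out of the error and can be too high. Leaving out 1 early WT library turned the WT count of 6 into 3 (replicate 1) or 1 (replicate 2), and leaving out either late hrde-1 library turned it into 8. The hrde-1 count of 5 became 0 without either early hrde-1 library, 7 without hrde-1 late replicate 1 and 3 without hrde-1 late replicate 2.

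A shift of the whole table runs under these values. The median log2 change of all tested genes was -0.59 (WT), -0.22 (morc-1) and -0.45 (hrde-1), late against early, and the medians over the 9 genes were -0.77, -0.33 and -0.66. With each library centred on its median, 4 of the 9 stood higher and 5 lower in WT, 3 and 6 in morc-1, and 3 and 6 in hrde-1. With centring and the block, 0 members were called in WT, rec-8 rose in morc-1 (7.66% of all genes rose), and syp-2 and syp-4 fell in hrde-1 (10.9% of all genes fell).

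Markers of other tissues moved with the same comparison. The 12 intestine markers summed to 3607 to 4015 FPKM in WT early and 11821 to 14692 FPKM in WT late, with 7640 to 7842 FPKM in morc-1 late and 4624 to 10905 FPKM in hrde-1 late. Not all of them moved this way: of 11 tested, 8 were higher and 3 lower in WT late than early (5 and 1 called without a block). The counts were 8 and 3 in morc-1 (2 and 0 called) and 6 and 5 in hrde-1 (1 and 1 called). The intestinal peptide transporter pept-1 fell in WT (-1.54, limma adjusted p = 0.0206) and in hrde-1 (-2.02, limma adjusted p = 0.00892). In morc-1 its change was -1.44, which passed with the block alone (limma adjusted p = 0.00839). The 9 muscle markers went from 1767 to 2332 FPKM in WT early to 3762 to 3824 FPKM in WT late. Their early and late ranges overlapped in morc-1 (2129 to 2387 and 2281 to 2915 FPKM) and in hrde-1 (1881 to 2023 and 1691 to 3408 FPKM). The 7 P granule genes, which mark the germ line, went from 691 to 874 FPKM down to 469 to 530 FPKM in WT. They stood at 591 to 614 FPKM in morc-1 early and 613 to 630 FPKM in morc-1 late. In hrde-1 they stood at 733 to 800 FPKM early and 570 to 613 FPKM late. With each library centred on its median, their median late against early change in WT was 0.007, with 4 higher and 3 lower. None of the intestine, muscle, P granule or oocyte markers was at 0 in any library. In whole animals fewer germ cells and less RNA per germ cell cannot be told apart, and the part of tissue make-up in the values below was not tested.

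Of the 9 genes, the cohesin kleisin rec-8 had the largest difference between its late against early change in morc-1 and that in WT. Its level was 130 and 121 FPKM in WT early, 97.2 and 63.5 FPKM in morc-1 early, and 155 and 91.3 FPKM in hrde-1 early. Late it was 87.2 and 60.6 FPKM in WT, 133 and 140.03 FPKM in morc-1, and 128 and 84.8 FPKM in hrde-1. Both morc-1 libraries lay below both WT libraries early and above both late, and the hrde-1 libraries overlapped WT in both generations and lay below both morc-1 libraries late.

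In means, rec-8 went from 125 ± 6.62 to 73.9 ± 18.8 FPKM in WT (SD, n = 2 each) and from 80.4 ± 23.8 to 137 ± 4.83 FPKM in morc-1. The log2 change late against early was -0.77 ± 0.34 (SE) in WT (limma adjusted p = 0.107, and 0.0165 with the block) and 0.79 ± 0.34 in morc-1 (limma adjusted p = 0.383, and 0.0494 with the block). In hrde-1 it was -0.19 ± 0.34 (limma adjusted p = 0.702). With median centring the WT change was -0.15 and the morc-1 change 1.02. The difference between the morc-1 and WT changes was 1.56 ± 0.48 on the log2 scale, with an unadjusted limma p of 0.00817 and an adjusted p of 0.357. With the block its limma adjusted p was 0.0473, where 7.43% of all genes were called higher, and 0.0545 with the block and median centring, under which 0 of 7324 genes were called.

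Against WT late, rec-8 in morc-1 late differed by 0.90 ± 0.34 on the log2 scale (limma adjusted p = 0.348), and rose with the block (limma adjusted p = 0.0400), as did 12.6% of all genes. The corresponding hrde-1 value was 0.51 ± 0.34 (limma adjusted p = 0.659, and 0.182 with the block). Early, morc-1 differed from WT by -0.66 ± 0.34 (limma adjusted p = 1, and 0.472 with the block). Within replicate numbers 1 and 2 the morc-1 minus WT difference was -0.41 and -0.91 early and 0.60 and 1.19 late. These blocked calls were lost without single libraries. In the test of the difference between morc-1 and WT, leaving out each of the 12 libraries in turn gave 0 called members in 9 of the 12 fits, and 2 without morc-1 late replicate 1 and 3 without either late hrde-1 library. The number of fits with 0 higher calls was 9 of 12 for morc-1 late against WT late and 8 of 12 for morc-1 late against early.

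**Figure D2:**
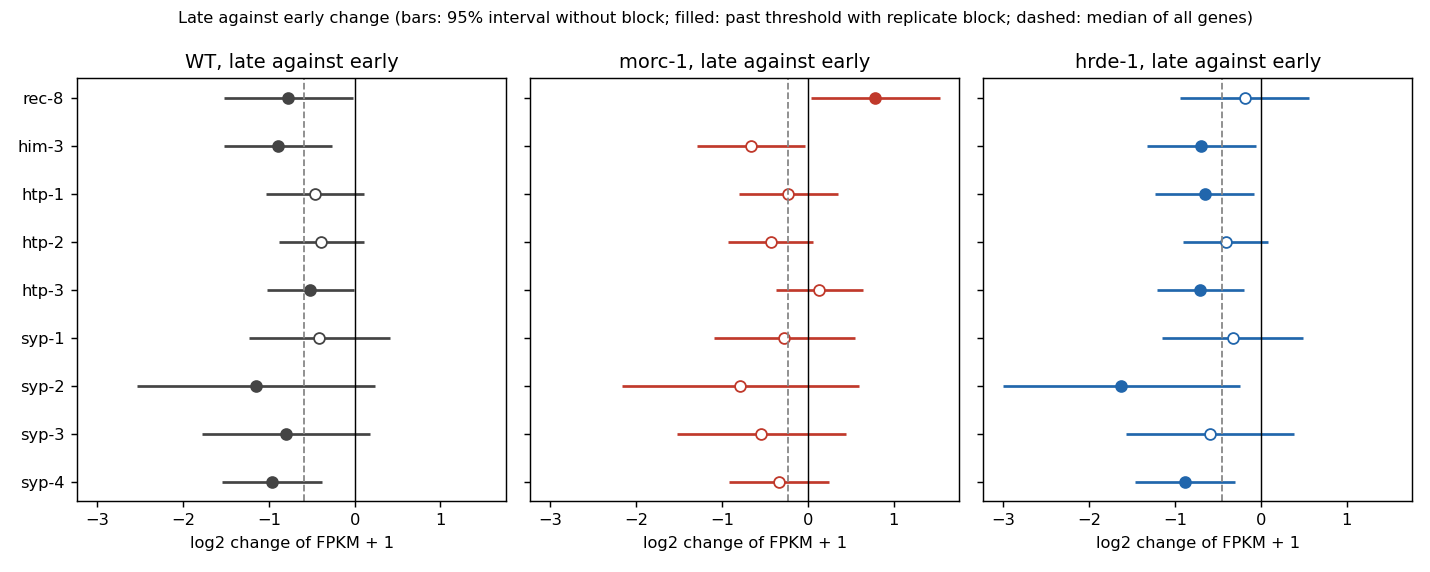
Change from generation 1 to generation 4 in each strain, as the difference of log2(FPKM + 1) on the horizontal axis shared by the 3 panels; points are limma estimates, bars their 95% intervals without the block, filled points pass the adjusted threshold with the replicate block within each generation, and the dashed line is the median of all tested genes. Filled points number 6 of 9 in WT, 1 of 9 in morc-1 (rec-8, to the right of 0) and 5 of 9 in hrde-1. The blocked error leaves out the spread between replicate numbers, so the filled points can be too many.

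The 4 HORMA protein genes had lower means late in WT and hrde-1. In WT the log2 difference of him-3 was larger than the median of all genes, and those of htp-1, htp-2 and htp-3 were smaller. him-3, whose product is an axis core component needed for pairing and synapsis, stood at 98.5 and 133 FPKM in WT early and 60.1 and 61.9 FPKM in WT late. In morc-1 it stood at 113 and 138 FPKM early and 85.7 and 71.6 FPKM late, and in hrde-1 at 121 and 153 FPKM early and 106 and 65.9 FPKM late. Late libraries lay below early ones in all 3 strains, with log2 changes of -0.90 ± 0.28 (WT), -0.66 ± 0.28 (morc-1) and -0.69 ± 0.28 (hrde-1). In that order limma adjusted p was 0.0625, 0.384 and 0.174, and with the block 0.00478, 0.0516 and 0.0192. Both late hrde-1 libraries and both late morc-1 libraries lay above both late WT libraries.

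htp-3, which codes for the HORMA protein that recruits the others, stood at 45.8 and 44.8 FPKM in WT early and 34.2 and 28.7 FPKM in WT late. In morc-1 it was 34.5 and 33.7 FPKM early and 37.8 and 37.4 FPKM late, and in hrde-1 it was 43.9 and 40.5 FPKM early and 28.1 and 23.0 FPKM late. The morc-1 libraries were thus lower than WT early and higher than WT late without overlap, and early and late morc-1 libraries did not overlap, with the late ones higher. The late against early log2 change was -0.52 ± 0.23 in WT (limma adjusted p = 0.109, and 0.0184 with the block), 0.14 ± 0.23 in morc-1 (limma adjusted p = 0.787, and 0.541 with the block) and -0.71 ± 0.23 in hrde-1 (limma adjusted p = 0.158, and 0.00953 with the block). The morc-1 change differed from the WT change by 0.65 ± 0.32 (limma adjusted p = 0.445, and 0.0803 with the block).

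Late hrde-1 libraries were the lowest for htp-3, below both late WT libraries. Their difference from WT late was -0.29 ± 0.23 (limma adjusted p = 0.734, and 0.263 with the block), and -0.45 with median centring and the block (limma adjusted p = 0.0377), where 7.96% of all genes fell. Against morc-1 late the hrde-1 late value was -0.55 ± 0.23 (limma adjusted p = 0.471, and 0.0843 with the block).

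The paralogs htp-1 and htp-2, whose products act in the stepwise loss of cohesion, had no call in WT or morc-1 with or without the block. htp-1 stood at 93.8 and 95.8 FPKM in WT early, 57.4 and 81.8 FPKM in WT late, 103 and 80.2 FPKM in morc-1 early and 73.3 and 82.5 FPKM in morc-1 late. In hrde-1 it was 93.0 and 86.2 FPKM early and 65.7 and 48.5 FPKM late, a log2 change of -0.66 ± 0.26 (limma adjusted p = 0.167, and 0.0413 with the block). The WT change was -0.46 ± 0.26 (limma adjusted p = 0.182, and 0.108 with the block) and the morc-1 change -0.22 ± 0.26 (limma adjusted p = 0.695, and 0.496 with the block). Of the 3 strains, early and late libraries of htp-1 overlapped in morc-1 alone.

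htp-2 ran from 63.7 to 72.3 FPKM over the 6 early libraries and from 42.7 to 59.9 FPKM over the 6 late ones, without overlap. Its log2 changes were -0.39 ± 0.22 (WT), -0.43 ± 0.22 (morc-1) and -0.41 ± 0.22 (hrde-1), with limma adjusted p of 0.190, 0.436 and 0.223 and, with the block, 0.0915, 0.129 and 0.0886. The morc-1 change differed from the WT change by -0.04 ± 0.31, with a 95% interval of -0.74 to 0.66.

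Among the central region genes, syp-2 and syp-4 had the largest late against early differences of the 9 in hrde-1 and, with him-3, in WT, and syp-2, syp-3 and syp-1 had the largest standard errors. syp-2 stood at 39.0 and 89.6 FPKM in WT early, 38.2 and 101 FPKM in morc-1 early and 40.3 and 94.4 FPKM in hrde-1 early, so replicate 2 was higher than replicate 1 by 1.18, 1.38 and 1.21 on the log2 scale. Late it was 23.5 and 29.0 FPKM in WT, 32.8 and 38.9 FPKM in morc-1, and 32.1 and 11.5 FPKM in hrde-1. Replicate 2 exceeded replicate 1 in 3 of 3 strains early for 54.5% of all tested genes, and stood below it late for 54.5%.

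The late against early log2 change of syp-2 was -1.15 ± 0.62 in WT (limma adjusted p = 0.168, and 0.0241 with the block), -0.78 ± 0.62 in morc-1 (limma adjusted p = 0.583, and 0.161 with the block) and -1.63 ± 0.62 in hrde-1 (limma adjusted p = 0.164, and 0.0104 with the block). The hrde-1 value is set in part by its late replicate 2, whose 11.5 FPKM was the lowest syp-2 level of the 12 libraries. That library also had the lowest sum of the 9 mRNAs and an FPKM sum of 1.404 M, the highest of the 12.

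syp-4 had the smallest standard error of the SYP genes, and in WT and hrde-1 the lowest adjusted p of the 9 without a block. It stood at 63.3 and 77.3 FPKM in WT early and 37.3 and 33.4 FPKM in WT late. In morc-1 it was 53.9 and 63.1 FPKM early and 48.5 and 43.8 FPKM late, and in hrde-1 it was 62.0 and 73.5 FPKM early and 44.4 and 29.2 FPKM late. Late libraries lay below early ones in each strain. The log2 change was -0.97 ± 0.26 in WT (limma adjusted p = 0.0524, and 0.00242 with the block), -0.33 ± 0.26 in morc-1 (limma adjusted p = 0.580, and 0.189 with the block) and -0.89 ± 0.26 in hrde-1 (limma adjusted p = 0.148, and 0.00713 with the block). The morc-1 change differed from the WT change by 0.63 ± 0.37 (limma adjusted p = 0.494, and 0.105 with the block).

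syp-3 stood at 30.6 and 47.2 FPKM in WT early and 23.6 and 19.4 FPKM in WT late. In morc-1 it was 33.5 and 46.9 FPKM early and 29.7 and 24.4 FPKM late, and in hrde-1 it was 31.3 and 37.9 FPKM early and 38.1 and 13.2 FPKM late. Early and late libraries overlapped in hrde-1 alone. The WT change was -0.80 ± 0.44 on the log2 scale (limma adjusted p = 0.177, and 0.0383 with the block). In morc-1 it was -0.54 ± 0.44 (limma adjusted p = 0.593, and 0.208 with the block) and in hrde-1 -0.59 ± 0.44 (limma adjusted p = 0.342, and 0.114 with the block).

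syp-1 was the SYP gene with the most overlap. It stood at 51.9 and 48.0 FPKM in WT early, 54.3 and 25.4 FPKM in WT late, 58.6 and 52.6 FPKM in morc-1 early, 55.6 and 37.5 FPKM in morc-1 late, 48.9 and 53.1 FPKM in hrde-1 early, and 50.8 and 32.1 FPKM in hrde-1 late. Early and late libraries overlapped in each strain, and late replicate 2 was lower than late replicate 1 by 0.56 to 1.07 on the log2 scale in each. Its WT change was -0.42 ± 0.37 (limma adjusted p = 0.388, and 0.0716 with the block), with -0.28 ± 0.37 in morc-1 and -0.33 ± 0.37 in hrde-1 (limma adjusted p = 0.738 and 0.531). In the RefSeq gene table of assembly WBcel235, syp-1 overlaps F13A7.14 and syp-3 overlaps mrt-1, and it is not given whether counting used strand, so reads of these pairs may have been shared.

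In counts of libraries that did not overlap, 8 of the 9 genes were lower late in WT, against 57.3% of all tested genes, and 6 of 9 in hrde-1, against 48.8%. In morc-1 4 of 9 were lower, against 38.5%, and 2 of 9, htp-3 and rec-8, were higher, against 17.3%. Late, 6 of 9 were higher in morc-1 than in WT without overlap, against 35.6% of all genes. Of the others, 1 of 9 (him-3) was higher and 1 of 9 (htp-3) lower in hrde-1 late than in WT late, against 15.8% and 11.1%. In hrde-1 late htp-1, htp-3, rec-8 and syp-2 were lower than in morc-1 late, 4 of 9 against 18.9%, with 0 passing limma with or without the block (5.01% of all genes with it).

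Within replicate numbers, morc-1 late exceeded WT late in both numbers for 8 of 9 genes, and for 53.0% of all tested genes, and the exception was htp-2. The 9 morc-1 late against WT late log2 changes ran from -0.05 to 0.90 with a median of 0.32, and the median of all genes was 0.25. With median centring 5 stood higher and 4 lower. In hrde-1 late against WT late the 9 values ran from -0.42 to 0.51 with a median of 0.03 (all genes 0.09). In both numbers 2 of 9 were higher, against 37.2% of all tested genes, and 1 of 9 lower, against 22.7%. With the block 0 passed, where 9.69% of all genes did. For the interaction with hrde-1 0 members passed with the block, as against 0.109% of all genes, and the 9 values ran from -0.48 to 0.58. Both late comparisons share the WT late libraries.

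**Figure D3:**
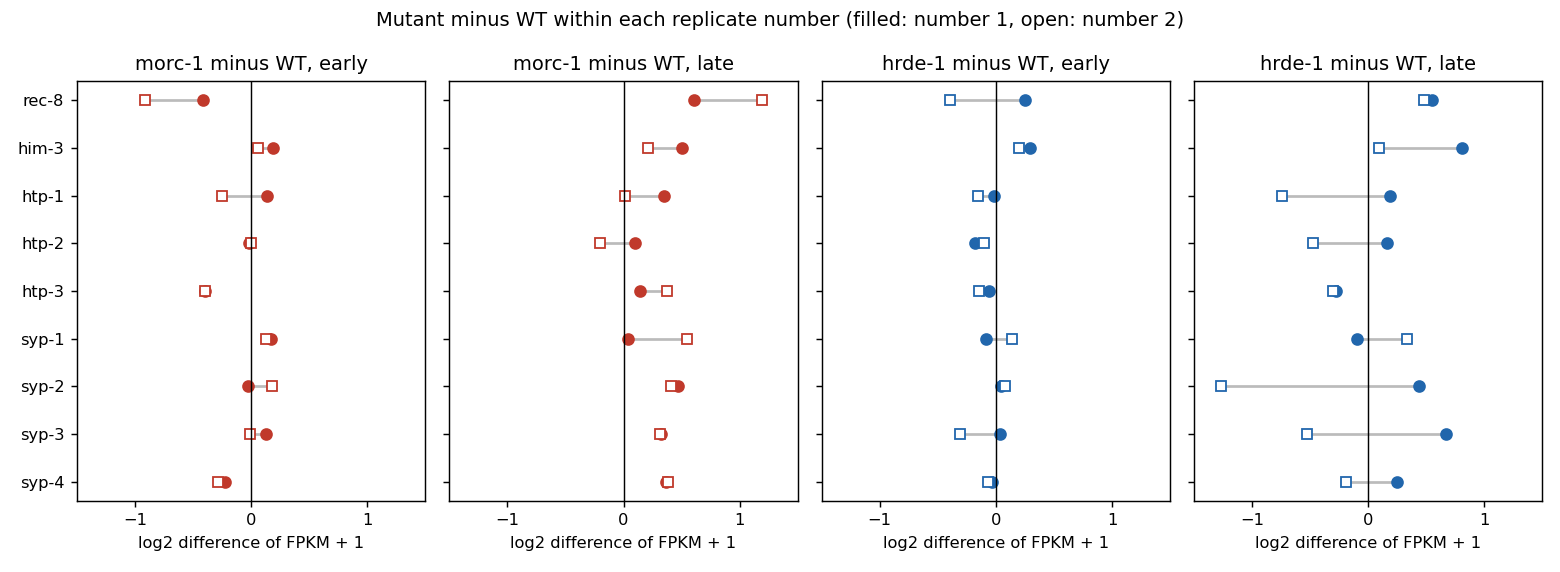
Mutant minus WT difference of log2(FPKM + 1) within replicate number 1 (filled circles) and number 2 (open squares), for each gene, in the early and late libraries of each mutant. In morc-1 late 8 of 9 genes lie right of 0 in both numbers, and rec-8 lies left of 0 early (-0.41 and -0.91) and right of it late (0.60 and 1.19).

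Early, 0 of the 9 genes passed in either mutant. The morc-1 early against WT early log2 changes ran from -0.66 (rec-8) to 0.15 (syp-1) with a median of -0.01, and 0 members passed, with 0 at an unadjusted p below 0.05 and 0 with the block, where 0.246% of all genes passed. Without overlap syp-1 was higher, 1 of 9 against 10.3% of all genes. Lower without overlap were htp-2, htp-3, rec-8 and syp-4, 4 of 9 against 19.4% of all genes. For htp-2 the libraries were 71.3 and 71.6 FPKM in morc-1 early against 72.3 and 71.7 FPKM in WT early. Its log2 change was -0.011, and 0.083 with median centring. The hrde-1 early values ran from -0.14 to 0.25 with 0 members passing limma, 0 at an unadjusted p below 0.05 and 0 with the block (1.06% of all genes), and the htp-1, htp-2 and htp-3 libraries were lower without overlap, 3 of 9 against 10.7%.

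The proportions among the roles varied between libraries. The rec-8 mRNA made up 9.76 to 26.5% of the 9-gene FPKM sum, with a median of 20.6%, the 4 HORMA genes 45.5 to 58.0% and the 4 SYP genes 24.5 to 40.5%. The lowest rec-8 share was in morc-1 early replicate 2 and the highest in morc-1 late replicate 2. The SYP share was highest in replicate 2 of the early groups, where syp-2 was high.

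**Figure D4:**
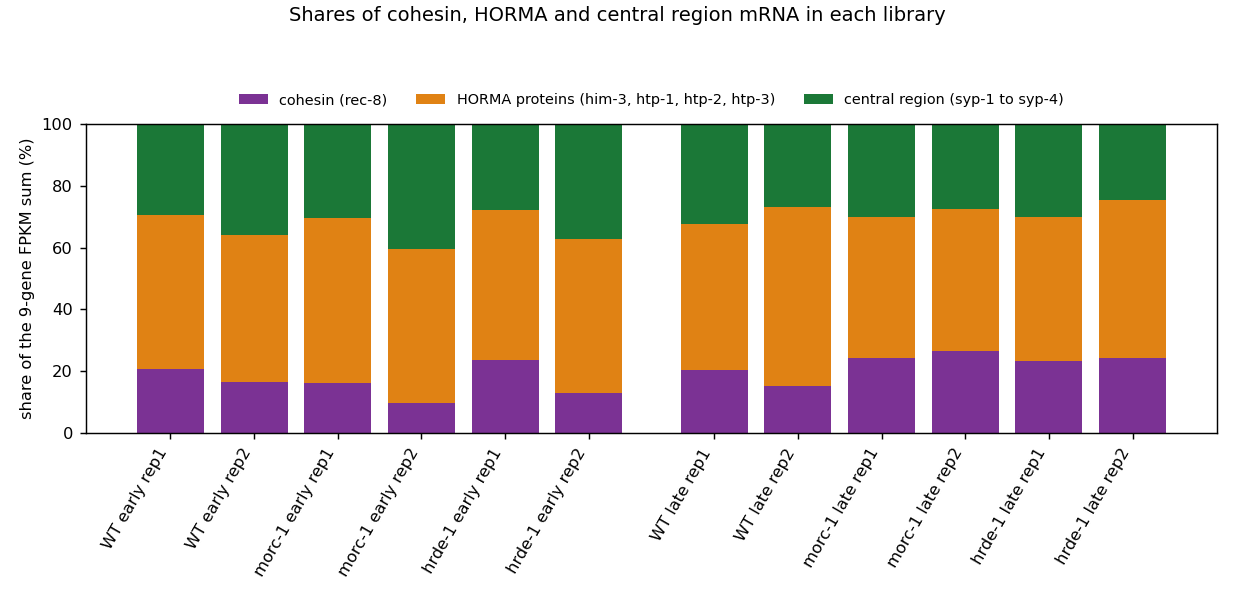
Share in percent of the 9-gene FPKM sum taken by rec-8, by the 4 HORMA genes and by the 4 SYP genes, as stacked bars from 0 to 100 for each of the 12 libraries. The rec-8 share goes from 9.76% in morc-1 early replicate 2 to 26.5% in morc-1 late replicate 2.

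The members varied together across libraries to different degrees, in values that share libraries, depth and the shift of the whole table. Over the 36 pairs of members, Pearson's r of log2(FPKM + 1) over the 12 libraries ran from -0.02 to 0.90 with a median of 0.64, and 34 pairs were above 0. The r of each gene with the mean of the standardized members, which includes that gene, was 0.98 for syp-4 and 0.39 for rec-8. The median r of a member with all tested genes was 0.67 for syp-4 and 0.18 for rec-8. The non-members most like that mean were ufd-1, sec-12, C27F2.10, vha-18 and Y71F9AL.12, with r from 0.989 to 0.995, and the median r over all tested genes was 0.66.

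Other meiotic genes, from lists taken from textbook knowledge, were lower late in WT as well, in a comparison where 50.5% of all tested genes fell with the block and 7.13% were called in either direction without it. Of 12 tested genes of other cohesin subunits and regulators, wapl-1, the cohesin release factor, fell late in WT (-1.14 ± 0.28, limma adjusted p = 0.0452) with no block, and 12 of 12 fell with the block. The largest of these were evl-14, the PDS-5 homologue (-1.42), him-1, the SMC-1 subunit (-1.36), mau-2, a cohesin loading factor (-1.32), and smc-3 (-1.21). The list median was -0.97 against -0.77 for the 9 members and -0.59 for all genes. The blocked late against early counts of this and the following lists leave the spread between replicate numbers out of the error. They can therefore be too high.

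Of 16 tested pairing and synapsis regulators, cra-1 (-1.38), zyg-12 (-1.04) and sun-1 (-0.91) fell late in WT without a block (limma adjusted p = 0.0488, 0.0392 and 0.0452), and 13 fell with it. zyg-12 and sun-1 code for the nuclear envelope proteins that tether chromosomes for pairing, and CRA-1 is needed for SYP assembly. The later identified central region genes syp-5 and syp-6, listed as Y54E10A.12 and F57B10.4, are in this list. With the block syp-5 fell in WT late (-1.28, limma adjusted p = 0.00147) and in hrde-1 late (-0.99, limma adjusted p = 0.00665), and both genes stood higher in morc-1 late than in WT late (0.67 each, limma adjusted p = 0.0441 for syp-5 and 0.0386 for syp-6).

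Of 10 tested genes of double-strand break formation, him-17 fell late in WT without a block (-0.84, limma adjusted p = 0.0465), and 10 fell with it. Of 21 strand exchange and crossover genes 0 fell without a block and 20 with it, and their median of -1.22 was the lowest of the meiotic lists. zhp-2, listed as D1081.9 and coding for a RING finger protein of the central region, fell by 1.97 on the log2 scale with the block (limma adjusted p = 7.87e-04). Of 14 genes of the meiotic divisions 4 fell without a block and 11 with it, and of 10 genes of meiotic entry 2 fell without it, lst-1 (-1.75) and gld-3 (-1.26), and 10 with it.

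The difference between the late against early changes of morc-1 and WT had 0 calls in these lists without a block. With it, 6 of 12 other cohesin genes were higher, among them smc-3 (1.31 ± 0.25), scc-3 (1.12 ± 0.27), evl-14 (1.103 ± 0.27) and wapl-1 (1.01 ± 0.24), at limma adjusted p of 0.0473 to 0.0484. So were 5 of 14 division genes and 5 of 10 meiotic entry genes, such as hcp-1 (1.44), lst-1 (1.83) and gld-1, a repressor of translation that promotes meiotic entry (1.53). Of 16 pairing and synapsis regulators 2 were higher, of 10 double-strand break genes 1, and of 21 strand exchange and crossover genes 0, and 7.43% of all tested genes were higher. Of the 9 axis and synapsis genes 1, rec-8, was higher. With median centring as well, 0 of 7324 genes were called. The 13 oocyte markers gave 7 higher in the same test, and their summed level was 4419 to 6257 FPKM in WT early, 3414 to 3838 FPKM in WT late, 3553 to 3632 FPKM in morc-1 early and 4680 to 4923 FPKM in morc-1 late. The part of oocyte number in these values was not tested.

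**Figure D5:**
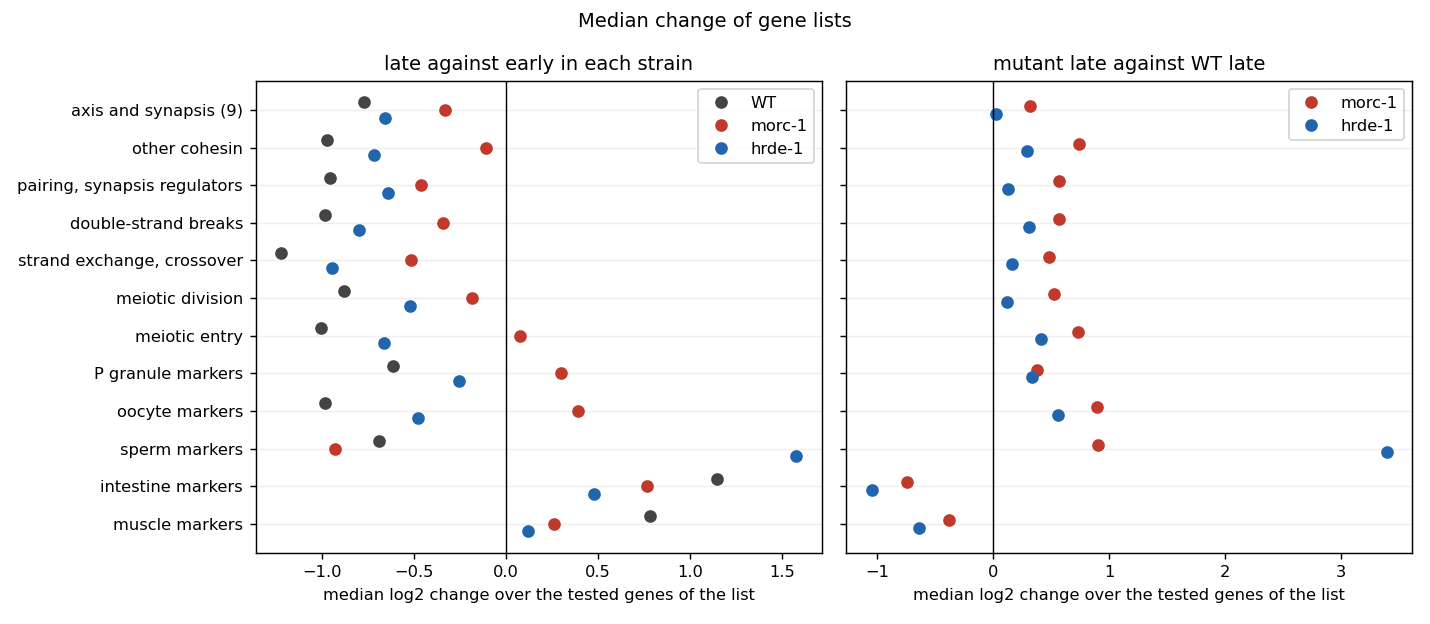
Median log2 change over the tested genes of each list, late against early in each strain (left) and each late mutant against WT late (right); points are medians over genes, without error. The 9 axis and synapsis genes lie at -0.77 (WT), -0.33 (morc-1) and -0.66 (hrde-1) on the left, and at 0.32 (morc-1) and 0.03 (hrde-1) on the right.

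In hrde-1 late, sperm markers were high while 0 of the 9 genes passed against WT late. With 14 markers summed, sperm mRNA was 499 to 1395 FPKM in hrde-1 late against 24.1 to 172 FPKM in WT late, and 6 of 9 tested markers rose without a block. The 9 axis and synapsis genes summed to 351 to 549 FPKM in hrde-1 late and 400.02 to 428 FPKM in WT late, and overlapped.

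None of the 9 genes was among the 2434 features of the small RNA table, so small RNAs against them were not compared. The chromatin libraries were not used here.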

How the data were processed

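The mRNA values deposited by the authors are not whole and their smallest nonzero values shrink with gene length, so they were read as FPKM. The table is named as normalized counts. Per the submitters' processing notes, reads were handled with Trimmomatic 0.35 and TopHat2; the quantification tool, the sources used here name no genome build, annotation or read depth. Libraries were made with a stranded kit, per the labels' protocols.

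The package limma (3.58.1, under R 4.3.3) was fitted to log2(FPKM + 1), with 12 libraries in 6 groups of 2, group means, a variance trend and Benjamini-Hochberg adjustment over 7324 genes with a mean of at least 10 FPKM (threshold 0.05). Fold changes are on the log2(FPKM + 1) scale and understate changes of low genes. Pearson's r of deviations from the group means between libraries of the same replicate number was 0.429 to 0.554 for the 6 pairs within a generation and -0.22 to 0.05 for the 9 pairs across generations, so the numbers were taken to pair libraries within a generation and a fit with that block is given beside results it changes. The fit without a block was tested on simulated data for morc-1 late against WT late. The simulation shuffled the deviations of each gene over the 12 libraries and gave them random signs. It thus held neither the shared deviations of replicate numbers nor the unequal spread of the groups, and its rates may differ from those in the data. In it the fit recovered 16.4% of genes changed by 1 on the log2 scale, 65.7% at 2 and 92.4% at 3. Of its 124 calls, 8 were false. A count of 0 without a block therefore does not show that the genes were unchanged.

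The members and gene lists were chosen with earlier results of these data known. Named were all 9 members, up to 4 passing genes per list and comparison by size of change, and the 5 non-members most like the mean of the members; syp-5 and syp-6 were singled out after their values were seen, as central region genes. Of 171 listed names 155 matched by name and 15 by identifier; rec-1 was not matched. Alternatives were another pseudocount (0.1), no filter, quantile normalization, median centring, only the compared groups, a block over all libraries, and leaving out each library. Chromosome names, overlaps and identifiers came from RefSeq genes of assembly WBcel235, with no coordinates printed. Small RNA and chromatin tables were not analysed here.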

Additional observations from a re-analysis of the deposited data

Results flagged for a closer look

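The rec-8 mRNA moved in opposite directions between generations in morc-1 and WT, with every late library above every early one in morc-1 and below in WT. The difference between both late against early changes was 1.56 on the log2 scale, with limma adjusted p = 0.357 without a block and 0.0473 with the replicate block within each generation. The htp-3 mRNA showed the same opposite directions without overlap, and its difference was 0.65 on the log2 scale (limma adjusted p = 0.445, and 0.0803 with the block). With libraries centred on their median, the htp-3 change in WT turned to 0.11. That of rec-8 shrank from -0.77 to -0.15 in WT (limma adjusted p = 0.809, and 0.552 with the block). In morc-1 the centred rec-8 change was 1.02 (limma adjusted p = 0.213, and 0.0233 with the block). The blocked error of such a change leaves out the spread between replicate numbers.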

How the results depend on the processing

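All counts without a block were 0 under the other pseudocount, no filter, quantile normalization, median centring, only the compared groups and a replicate block over all 12 libraries. With the replicate block within each generation, called members numbered 6 lower in WT and 5 lower in hrde-1 late against early, and 1 higher in morc-1 late against early, in morc-1 late against WT late and in the interaction with morc-1. With quantile normalization and this block they were 1 lower in WT, 2 lower in hrde-1, 1 higher in morc-1 late against early, 1 higher in the interaction with morc-1 and 1 lower in hrde-1 late against WT late. With median centring and this block they were 2 lower in hrde-1, 1 higher in morc-1 late against early and 1 lower in hrde-1 late against WT late. These block fits with another scaling or without a library were added after seeing the data. Leaving out each library without a block gave 0 to 2 lower in WT and 0 to 6 lower in hrde-1, and 0 elsewhere. With the block it gave 1 to 8 (WT) and 0 to 7 (hrde-1) lower late against early, 0 to 1 higher and 0 to 4 lower in morc-1 late against early, 0 to 3 higher in morc-1 late against WT late and in its interaction, 0 to 1 higher and 0 to 1 lower in hrde-1 late against WT late, and 0 to 5 lower in hrde-1 late against morc-1 late. The shares of all genes called with quantile normalization and the block, or without a library, are not given here. Counts of members from those fits therefore show how stable the calls were and do not set the members apart from all genes. The cause of the differences between fits was not tested. The replicate block within each generation changed no call of a member in the other comparisons.

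Signs of small log2 changes turned with scaling, and the values with or without the block were equal. Median centring gave, late against early in WT, 0.16 (htp-1), 0.24 (htp-2), 0.11 (htp-3) and 0.21 (syp-1), in hrde-1 0.0501 (htp-2), 0.27 (rec-8) and 0.13 (syp-1), and in morc-1 0.011 (htp-1). It gave -0.046 (syp-1), -0.092 (syp-3) and -0.14 (syp-4) in hrde-1 late against WT late, 0.025 (htp-2) in hrde-1 late against morc-1 late, 0.037 (htp-1) and 0.083 (htp-2) in morc-1 early against WT early, and -0.12 (htp-1), -0.038 (htp-3) and -0.0036 (syp-1) in morc-1 late against WT late. The interactions turned to -0.16 (him-3), -0.15 (htp-1), -0.25 (syp-1), -0.024 (syp-2) and -0.13 (syp-3) for morc-1 and -0.078 (syp-1) and -0.087 (syp-4) for hrde-1. Quantile normalization gave 0.12 (htp-2), 0.10 (htp-3) and 0.22 (syp-1) in WT late against early, 0.017 (htp-2), 0.085 (rec-8) and 0.14 (syp-1) in hrde-1, and 0.018 (htp-1) in morc-1. It gave -0.034 (syp-1), -0.12 (syp-3) and -0.10 (syp-4) in hrde-1 late against WT late, 0.0059 (htp-2) in hrde-1 late against morc-1 late, 0.072 (htp-2) in morc-1 early against WT early, -0.025 (htp-3) in morc-1 late against WT late, and interactions of -0.22 (syp-1), -0.0048 (syp-2) and -0.13 (syp-3) for morc-1 and -0.084 (syp-1) and -0.067 (syp-4) for hrde-1.

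Without each library in turn, these log2 changes crossed 0. In morc-1 early against WT early the ranges were -0.0897 to 0.34 (him-3), -0.24 to 0.12 (htp-1), -0.62 to 0.77 (syp-2) and -0.25 to 0.36 (syp-3). In hrde-1 early against WT early they were -0.45 to 0.31 (rec-8), -0.028 to 0.088 (syp-1), -0.54 to 0.66 (syp-2), -0.44 to 0.17 (syp-3) and -0.19 to 0.091 (syp-4). In morc-1 late against WT late they were -0.072 to 0.43 (htp-1), -0.18 to 0.074 (htp-2) and -0.24 to 0.83 (syp-1). In hrde-1 late against WT late they were -0.35 to 0.033 (htp-2), -0.42 to 0.65 (syp-1), -1.12 to 0.29 (syp-2), -0.66 to 0.80 (syp-3) and -0.27 to 0.32 (syp-4). Between hrde-1 late and morc-1 late they were -0.25 to 0.43 (him-3), -0.30 to 0.087 (htp-2), -0.50 to 0.15 (syp-1) and -0.97 to 0.49 (syp-3). Late against early they were -0.95 to 0.12 (syp-1, WT), -0.55 to 0.0028 (syp-1, morc-1), -0.57 to 0.19 (rec-8, hrde-1) and -1.32 to 0.14 (syp-3, hrde-1). The interaction with morc-1 ran from -0.014 to 0.49 (htp-1), -0.17 to 0.085 (htp-2), -0.39 to 0.67 (syp-1), -0.33 to 1.06 (syp-2) and -0.048 to 0.56 (syp-3). That with hrde-1 ran from -0.14 to 0.54 (him-3), -0.45 to 0.057 (htp-1), -0.21 to 0.17 (htp-2), -0.45 to 0.62 (syp-1), -1.18 to 0.23 (syp-2), -0.52 to 0.94 (syp-3) and -0.22 to 0.37 (syp-4).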
